A study of Zea mays with 6 samples.

Results

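Catalases and superoxide dismutases were described by 9 probe sets for 6 genes, out of 17555 probe sets and 1108 genes that could be paired with a probe set of their own. They were taken as every probe set paired with exactly 1 gene whose symbol or RefSeq synonym is cat or sod followed by a number and an optional letter. The genes were the catalases cat1 (NCBI gene 542369, 3 probe sets), cat2 (NCBI gene 542230, 1 probe set) and CAT3 (NCBI gene 542370, 1 probe set) and the superoxide dismutases sod2 (NCBI gene 542260, 2 probe sets), sod3 (NCBI gene 542764, 1 probe set) and Sod4A (NCBI gene 542377, 1 probe set). Of the 6 genes, 5 were found by gene ID in the RefSeq table. Sod4A carries its name from the platform annotation alone.

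The RNA came from leaf 3 of the maize inbred line A661, from plants kept at 15 °C for 3 weeks and then at 25 °C for 1 week. By then the leaf had a distal section that lacked chlorophyll (CL) and a proximal section that contained it (CC), and the 2 cm of each that bordered the transition were taken. Each section was measured on 3 single-colour Affymetrix arrays, 1 per biological replicate, with CC as the control. All 6 arrays share the line and both temperature periods, CL was always distal, and chlorophyll content, position along the leaf and the temperature during growth of a section therefore cannot be told apart.

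Superoxide is formed when electrons leak to oxygen, in plants mainly in chloroplasts, in mitochondria and at the plasma membrane. Superoxide dismutases turn it into hydrogen peroxide and oxygen, and catalases split hydrogen peroxide into water and oxygen, chiefly in peroxisomes. In maize leaves the catalase CAT2 is known from peroxisomes of bundle sheath cells, where photorespiration produces hydrogen peroxide. CAT3 is known from mesophyll cells, has been found associated with mitochondria, and its transcript follows a daily rhythm, whereas CAT1 is best known from the scutellum of the seed and from responses to abscisic acid and oxidative stress. Of the dismutases, SOD2, SOD4 and SOD4A are copper and zinc enzymes of the cytosol and SOD3 is the manganese enzyme of mitochondria.

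The deposited values are log2 expression values after RMA, which normalizes all arrays to a common distribution. Array medians lay between 6.29 and 6.36, and arrays of the same section correlated with a Pearson r of at least 0.989 over all probe sets, those of different sections with at most 0.982. Leaf markers were bright in both sections, with pep1, which encodes the mesophyll phosphoenolpyruvate carboxylase, at 13.18 to 13.28 and me3, which encodes the bundle sheath NADP-malic enzyme, at 13.12 to 13.19. Both lay at the 99.9th percentile of mean brightness, and whether their signals were saturated was not tested. Neither pep1 nor me3 passed the test between sections. Of 5 genes matched as mesophyll markers 2 rose (ppt1 and PDK1) and 0 fell. PDK1 (NCBI gene 541677, also named pdlk1) is a different gene from pdk1 (NCBI gene 542759), and its names do not show that it is a mesophyll marker. The log2 change of pdk1 was 0.05, and it did not pass (limma adjusted p = 0.626). Of 3 bundle sheath markers 0 rose and 1 fell (rca1, for rubisco activase). Over all 1108 genes 18.7% passed as higher and 19.9% as lower in CL, and counts in lists this short are not read as shifts of a cell type. Markers of other leaf cell types were also counted. Of 3 epidermis and wax markers 0 rose and 2 fell, with log2 changes of -1.73 for gl1 (SE 0.20, limma adjusted p = 0.00285) and -0.33 for gl15 (adjusted p = 0.0277). Of 3 vascular markers 0 rose and 1 fell, with a log2 change of -0.87 for the sucrose transporter gene sut1 (SE 0.22, limma adjusted p = 0.0256). Their part in the results for catalases and dismutases was not tested. The number of arrays limits the precision. In bulk tissue, fewer cells of a type and less RNA per cell cannot be told apart.

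The comparison of CL with CC asked whether transcripts of these enzymes differ between leaf tissue without and with chlorophyll. Of the 9 probe sets, 3 rose in CL and 0 fell at an adjusted p under 0.05 in limma's linear model, which was fitted over all probe sets. They were those of CAT3, of Sod4A and the middle one in brightness of the 3 for cat1. Over all 17555 probe sets 31.1% passed, 15.9% as higher and 15.2% as lower in CL, so a share of 3 in 9 is close to that of the whole array. The median log2 change (CL minus CC) of the 9 probe sets was 0.18, beside -0.05 over all probe sets, and 0 of the 9 changed by 2-fold or more. The CL arrays lay above all CC arrays for 4 of the 9 and below them for 1, states found for 22.9% and 26.8% of all probe sets, or 49.6% together.

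**Figure D1:**
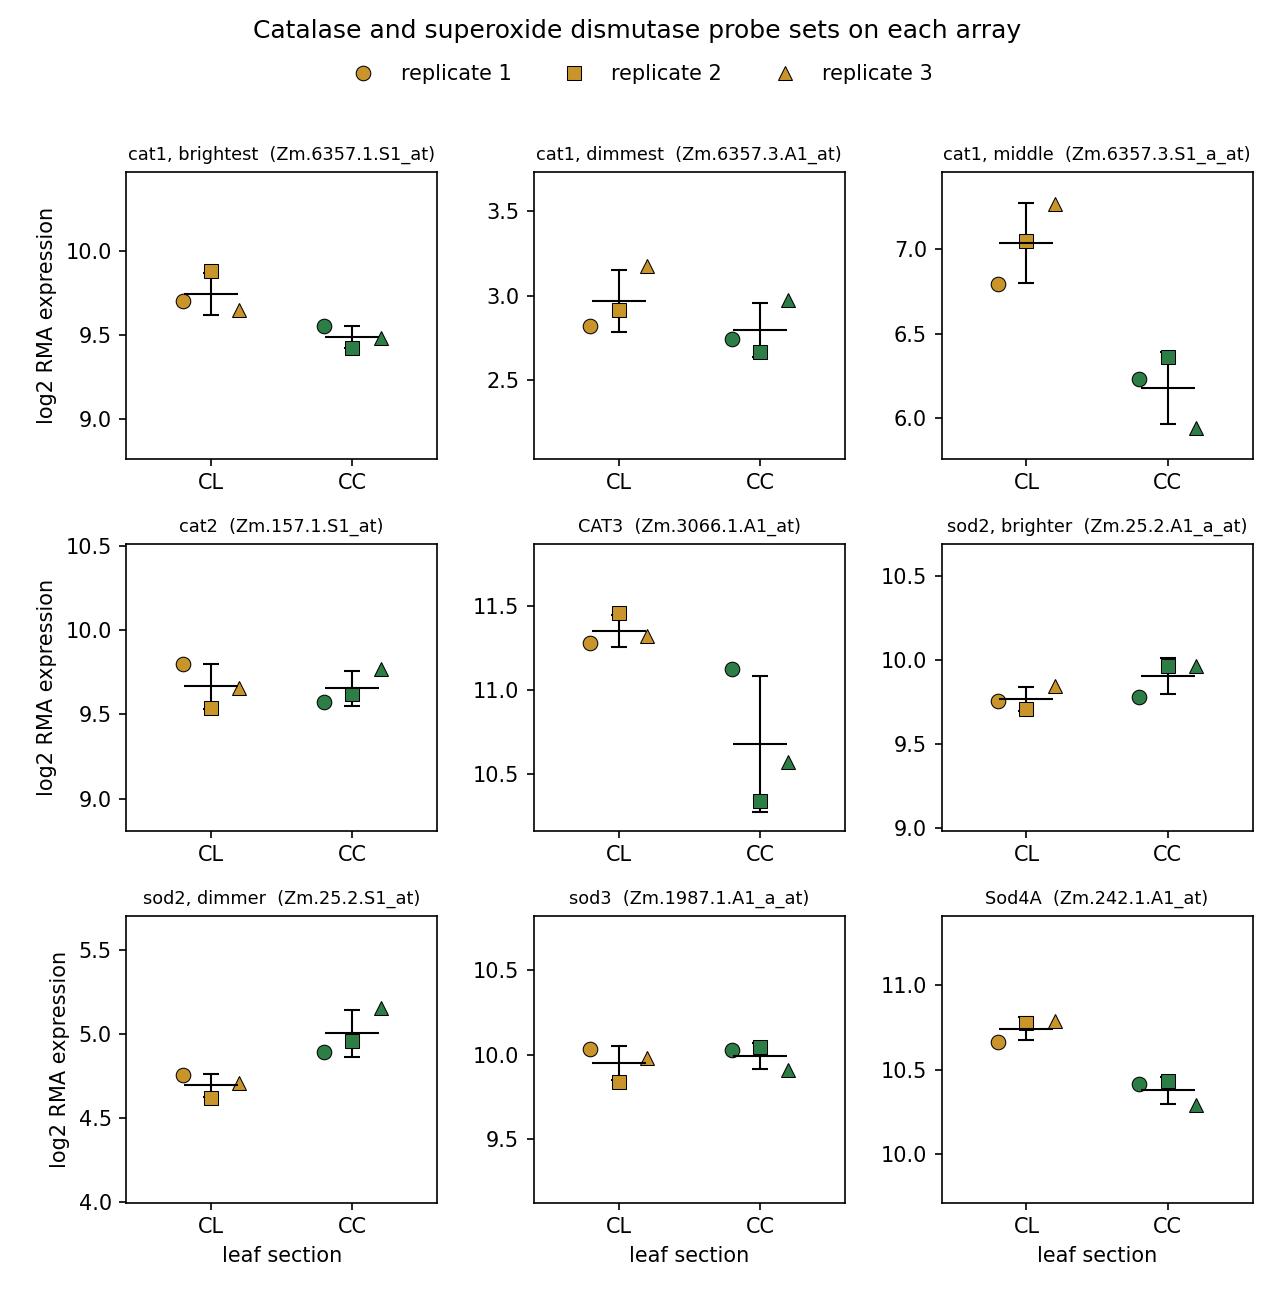
Log2 RMA expression (vertical axes, each spanning the same number of log2 units) of the 9 probe sets in the CL and CC sections; each symbol is 1 array, horizontal bars are means and error bars are SD (n = 3). The sections are fully apart with CL higher for the brightest and the middle cat1 probe set, CAT3 and Sod4A, and with CL lower for the dimmer sod2 probe set.

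CAT3 read 11.28, 11.46 and 11.32 on the CL arrays and 11.13, 10.34 and 10.57 on the CC arrays, in the order of replicates 1 to 3. All CL arrays were above all CC arrays, but CC replicate 1 lay within 0.2 of the lowest CL array while the other CC arrays were well below it. The mean was 11.35 ± 0.09 for CL and 10.68 ± 0.40 for CC (SD, n = 3 each), so the spread came mainly from the section with chlorophyll. CAT3 rose by 0.67 on the log2 scale (SE 0.20, 95% confidence interval 0.21 to 1.13), a 1.59-fold difference, with a limma adjusted p of 0.0396. The call depended on single arrays. It held without CC replicate 1, where the change was 0.90 (adjusted p = 0.00591), and was lost without CL replicate 1, CL replicate 2, CL replicate 3, CC replicate 2 or CC replicate 3, where adjusted p was 0.0683, 0.114, 0.104, 0.105 and 0.107. The change itself stayed between 0.50 and 0.90 on the log2 scale.

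For cat1 the 3 probe sets, called brightest, middle and dimmest here after their mean over all arrays, gave different changes. The middle one read 6.79, 7.05 and 7.27 in CL and 6.23, 6.36 and 5.94 in CC. Every CL array was above every CC array. Its mean was 7.04 ± 0.24 for CL and 6.18 ± 0.22 for CC (SD, n = 3 each), and it rose by 0.86 on the log2 scale (SE 0.16, 95% confidence interval 0.49 to 1.23), a 1.82-fold difference with a limma adjusted p of 0.00916. This was the largest change among the 9 probe sets, and its size was at the 91.3rd percentile of the sizes of change over all probe sets. It passed with each of the 6 arrays left out in turn, with adjusted p between 0.00848 and 0.0388.

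The brightest cat1 probe set read 9.70, 9.88 and 9.65 in CL and 9.56, 9.42 and 9.48 in CC. Here too every CL array was above every CC array, by a narrow margin. Its log2 change was 0.26 (SE 0.10, 95% confidence interval 0.03 to 0.48), and it did not pass (limma adjusted p = 0.0789). The dimmest read 2.82, 2.91 and 3.17 in CL and 2.74, 2.67 and 2.97 in CC, so the sections overlapped, with a log2 change of 0.18 (SE 0.13, limma adjusted p = 0.329). Its mean lay at the 8.29th percentile of all probe sets, at the dim end of the arrays, where RMA compresses differences, against the 53.0th percentile for the middle and the 88.9th for the brightest. The dimmest and the middle probe set were designed from the same source sequence according to the platform annotation. Arrays labelled from the 3' end read the last part of a transcript, and which of these probe sets follows the bulk of cat1 transcripts was not tested. Averaged over its 3 probe sets cat1 had a log2 change of 0.43 (SE 0.09, limma adjusted p = 0.0155), whereas represented by its brightest probe set it did not pass.

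The single probe set of cat2 read 9.80, 9.54 and 9.66 in CL and 9.57, 9.62 and 9.77 in CC. The sections overlapped throughout. Its log2 change was 0.01 (SE 0.10, 95% confidence interval -0.23 to 0.26), which leaves room for a difference between 0.852-fold and 1.19-fold, with a limma adjusted p of 0.942. The spread between arrays was similar in both sections (SD 0.132 in CL and 0.101 in CC, n = 3 each). Its sign turned under 5 alternatives (median centring, quantile normalization, and without CL replicate 1, CC replicate 1 or CC replicate 2), so cat2 has no direction here.

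Among the dismutases, Sod4A read 10.66, 10.78 and 10.79 in CL and 10.41, 10.43 and 10.29 in CC. The CL arrays were all above the CC arrays and the spread was small in both sections. With a mean of 10.74 ± 0.07 for CL and 10.38 ± 0.08 for CC (SD, n = 3 each), Sod4A rose by 0.36 on the log2 scale (SE 0.09, 95% confidence interval 0.16 to 0.57), a 1.29-fold difference with a limma adjusted p of 0.0206. The call was lost without CL replicate 2, CL replicate 3, CC replicate 2 or CC replicate 3, where adjusted p was 0.0627, 0.0855, 0.0527 and 0.0586. It held without CL replicate 1 (0.0269) and without CC replicate 1 (0.0347), and the change lay between 0.32 and 0.40 in these 6 fits.

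The mitochondrial dismutase gene sod3 read 10.03, 9.84 and 9.98 in CL and 10.03, 10.05 and 9.91 in CC. The arrays of both sections covered nearly the same range. Its log2 change was -0.04 (SE 0.09, 95% confidence interval -0.26 to 0.17), with a limma adjusted p of 0.736, and its sign turned without CL replicate 2 (0.01). Both the small size of the change and its interval leave no direction for sod3.

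Both probe sets of sod2, a cytosolic dismutase gene, had lower means in CL, and neither passed. They differed widely in brightness, with CL means of 9.77 and 4.70, and which of them follows sod2 transcripts was not tested. The brighter one read 9.76, 9.71 and 9.85 in CL and 9.78, 9.97 and 9.97 in CC, a log2 change of -0.13 (SE 0.09, 95% confidence interval -0.35 to 0.09, limma adjusted p = 0.302). The sections overlapped through CC replicate 1. The dimmer one read 4.75, 4.62 and 4.71 in CL and 4.89, 4.96 and 5.16 in CC. Here the CL arrays were all below the CC arrays, and the log2 change was -0.31 (SE 0.10, 95% confidence interval -0.54 to -0.07) with a limma adjusted p of 0.0531. It passed as lower in CL after centring on array medians (adjusted p = 0.0392), without the dimmest 25% of probe sets (0.0478), with array weights (0.0146) and without CC replicate 1 (0.0465). Its mean lay at the 34.8th percentile of all probe sets, and the 25th percentile of the arrays was 3.95 to 3.97 in CL and 4.04 to 4.15 in CC, so the dim end as a whole was lower in CL. The part of that shift in the value of sod2 was not tested. The mean of both probe sets changed by -0.22 (SE 0.09, adjusted p = 0.108).

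**Figure D2:**
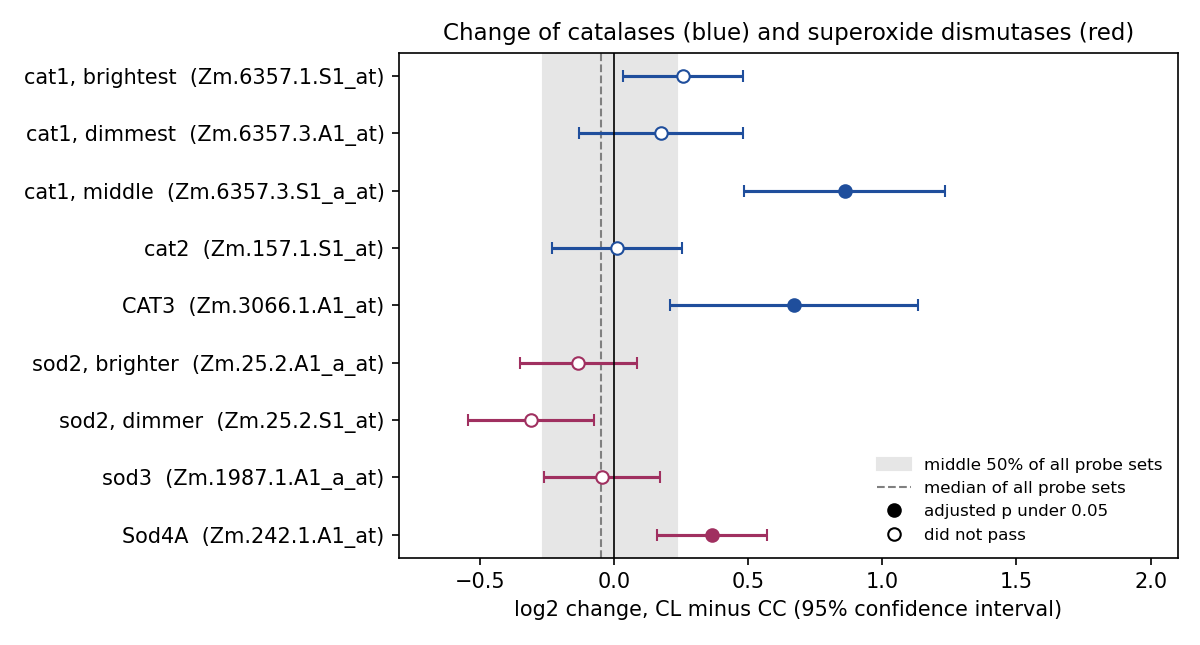
Log2 change (CL minus CC, horizontal axis) of each of the 9 probe sets with its 95% confidence interval from limma (n = 3 per section); filled circles passed an adjusted p of 0.05. The changes run from -0.31 for the dimmer sod2 probe set to 0.86 for the middle cat1 probe set, and 0.86, 0.67 and 0.36 are the filled ones; the grey band holds the middle 50% of all probe sets, from -0.26 to 0.23, and the dashed line is their median.

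All 5 catalase probe sets had a positive log2 change, 0.01 to 0.86, and 2 of them rose. They are not 5 separate genes, since 3 belong to cat1, and cat2 at 0.01 has no direction. Over all 17555 probe sets 7756 had a positive log2 change, so these signs are not read as a result for the family. Of the 4 dismutase probe sets 1 rose, and the other 3 had negative log2 changes that did not pass. Grouped by the compartment given above as background, the cytosolic copper and zinc dismutases were thus represented by Sod4A, which rose, and sod2, which did not pass, and the mitochondrial manganese dismutase by sod3, which did not pass. No catalase or dismutase probe set fell on the deposited values with all 6 arrays, equal array weights and no filter, and 1 did so under the settings named for sod2.

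Whether isoforms changed unequally was asked of the log2 ratio between their brightest probe sets on each array, for 4 pairs. Each pair set CAT3 or Sod4A, which passed as higher in CL on these same arrays, against another gene of its family. Positive differences follow in part from that choice and are no further support for the rises. The pairs cat1 with cat2 and sod2 with sod3 were not compared. The difference between changes was 0.41 for CAT3 minus cat1, 0.66 for CAT3 minus cat2, 0.50 for Sod4A minus sod2 and 0.41 for Sod4A minus sod3. In an exact two-sided permutation test over arrays these had p = 0.1, 0.2, 0.1 and 0.1, or 0.133, 0.2, 0.133 and 0.133 adjusted over the 4 pairs, where 0.1 is the smallest p that 3 against 3 arrays can give. This test therefore cannot pass 0.05 for any of the pairs. Relative to the CC mean, the ratio of CAT3 to cat1 was 0.382, 0.382 and 0.480 in CL and 0.379, -0.276 and -0.103 in CC. CC replicate 1 lay just under the CL arrays. For CAT3 and cat2 that array, at 0.530, was above CL replicate 1 at 0.452, so the sections overlapped. For Sod4A and sod3 the CC arrays were at 0.002, 0.002 and -0.004 and the CL arrays at 0.245, 0.554 and 0.426. These dismutase ratios were apart in all arrays, as were those of Sod4A and sod2, at 0.432, 0.593 and 0.466 in CL against 0.160, -0.006 and -0.153 in CC. Without CC replicate 1 the difference for CAT3 and cat1 was 0.60, and without CC replicate 2 it was 0.28. It depends on the cat1 probe set. Against the middle one, whose own change was larger than that of CAT3, the difference turned to -0.19 (exact permutation p = 0.6), and against the dimmest it was 0.50 (p = 0.2, exact permutation test), a comparison added after the values were seen.

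**Figure D3:**
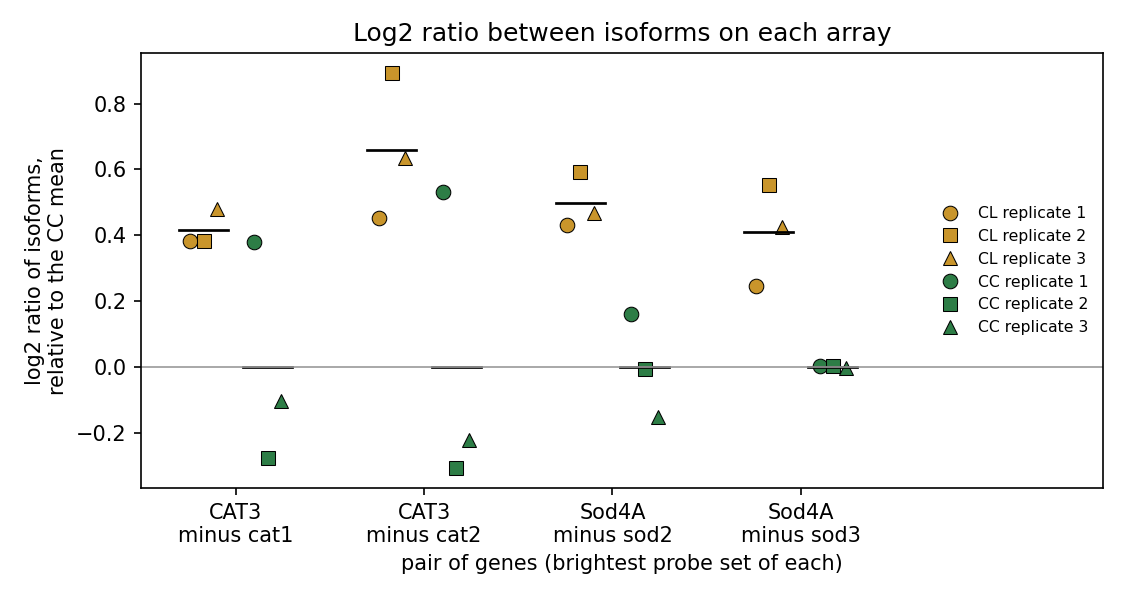
Log2 ratio between the brightest probe sets of 2 isoforms on each array, relative to the mean of the CC arrays (vertical axis), for 4 pairs of genes; each symbol is 1 array and short lines are section means (n = 3). CC replicate 1 sits at 0.38 and 0.53 in the pairs with CAT3, beside the CL arrays, and the CL arrays lie above all CC arrays in both pairs with Sod4A.

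Across the 14 alternative settings, the middle cat1 probe set passed in 13, Sod4A in 9 and CAT3 in 8. None of the 3 turned its sign in any of these settings. The settings refit the same arrays and are not independent of each other. Array weights gave CL replicate 3 a weight of 5.38, against 0.53 and 0.61 for CL replicates 1 and 2. With 1 array left out, CAT3 passed in 1 of 6 fits and Sod4A in 2 of 6. The losses of CAT3 and Sod4A came with a smaller number of arrays or with a block for the replicate number, and with the block the middle cat1 probe set was at an adjusted p of 0.0505. Leaving out an array also moved the count over all probe sets, for instance to 1308 higher and 1082 lower without CL replicate 3, against 2789 and 2668 with all arrays.

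**Figure D4:**
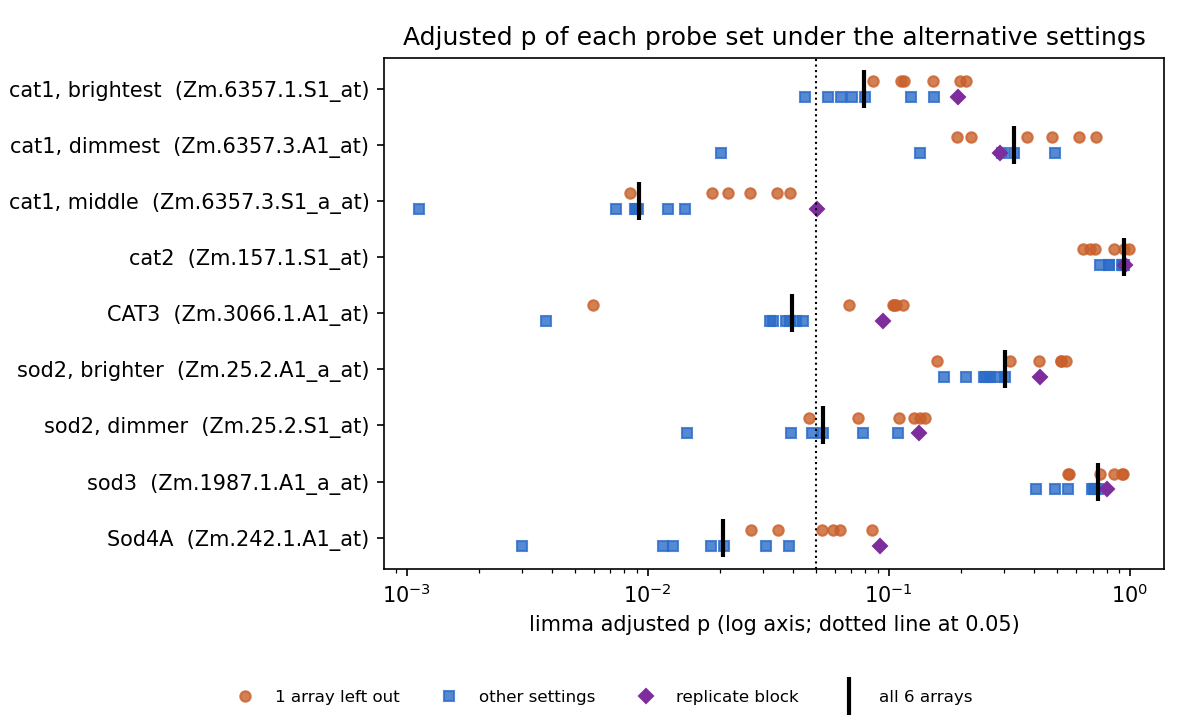
Limma adjusted p (horizontal log axis, dotted line at 0.05) of each of the 9 probe sets with all 6 arrays (black bar), with 1 array left out (orange circles), with a replicate block (purple diamond) and under the other settings (blue squares). The orange circles of the middle cat1 probe set end at 0.0388, left of the line, while those of CAT3 reach 0.114 and those of Sod4A 0.0855.

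Other genes of the removal and formation of superoxide and hydrogen peroxide were matched by symbol or synonym to 6 lists. They came to 19 genes, each represented by its brightest probe set, of which 3 rose, 7 fell and 9 did not pass. Without GR1a, GR2b, GR2c and GRP, which matched by symbol alone, 2 rose and 4 fell among 15 genes. Over all 1108 genes 38.6% passed, 18.7% as higher and 19.9% as lower in CL. The median log2 change was -0.20 over the 19 genes, -0.17 over the 15 and -0.08 over all genes. With 1 array left out in turn the counts ran from 0 to 4 higher and from 2 to 4 lower, with 0 higher without CL replicate 3, CC replicate 2 or CC replicate 3.

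In the ascorbate and glutathione cycle, which removes hydrogen peroxide alongside catalase, 6 genes were matched, but gor1 and apx alone are named for its enzymes, and of these 2 genes 1 rose and 0 fell. All 6 together had 2 rises and 3 falls (median log2 change -0.23), with the 3 falls among genes matched by symbol alone. The glutathione reductase gene gor1 had a mean of 10.59 ± 0.06 on the CL arrays and 10.26 ± 0.09 on the CC arrays (SD, n = 3 each). It rose by 0.33 on the log2 scale (SE 0.09, limma adjusted p = 0.0291), a call that was lost without CL replicate 2, CL replicate 3, CC replicate 2 or CC replicate 3 (adjusted p up to 0.112). The ascorbate peroxidase gene apx read 10.63, 10.36 and 10.65 in CL and 10.70, 10.81 and 10.73 in CC, with a log2 change of -0.20 (limma adjusted p = 0.182). The names of the other four do not show that they belong to the cycle. Of those, GR2b fell by 1.03 on the log2 scale (SE 0.11, limma adjusted p = 0.00222) and passed with every array left out in turn. GR2c rose by 0.55, GR1a fell by 1.57 and GRP fell by 0.27. Their calls were lost with single arrays left out, in 3, 5 and 6 of 6 fits.

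Of 4 genes matched as peroxiredoxin, glutaredoxin or thioredoxin, 0 rose and 1 fell (median log2 change -0.12). The thioredoxin h gene trxh1 fell by 0.45 on the log2 scale (SE 0.13, limma adjusted p = 0.0429), a call that held in 1 of the 6 fits with an array left out. Its relative trxh2 had a log2 change of -0.01. Of 5 class III peroxidases, enzymes that use hydrogen peroxide in the cell wall and vacuole, 0 rose and 1 fell (median -0.17). The fall was that of pox2, from 4.15, 3.59 and 4.78 on the CC arrays to 3.06, 3.23 and 3.29 on the CL arrays, with a log2 change of -0.98 (SE 0.28, limma adjusted p = 0.0362), and it was lost without CL replicate 1, CL replicate 2, CL replicate 3 or CC replicate 1. These values lie near the dim end of the arrays. The gene with the name PER1 and NCBI gene 542029 is on both lists (log2 change -0.03) and is a class III peroxidase by its other names.

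Ferritins store iron, which otherwise turns hydrogen peroxide into hydroxyl radicals. Of 3 genes on the ferritin and metallothionein list, 1 rose and 0 fell (median log2 change 0.84). The ferritin gene fer1 read 10.63, 11.43 and 11.55 in CL and 10.58, 9.58 and 10.07 in CC. Replicate 1 of CL and of CC were nearly equal, and the other arrays were further apart. It rose by 1.13 on the log2 scale (SE 0.32, limma adjusted p = 0.0362), and the call was lost without CL replicate 2, CL replicate 3, CC replicate 2 or CC replicate 3 (adjusted p up to 0.119). A second ferritin gene, fer2, had a log2 change of 0.84 (SE 0.32) and did not pass (limma adjusted p = 0.085), with sections that overlapped.

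Both genes matched as sources fell in CL. The polyamine oxidase gene mpao1, whose enzyme releases hydrogen peroxide in the cell wall, had a mean of 7.30 ± 0.10 on the CL arrays and 8.58 ± 0.40 on the CC arrays (SD, n = 3 each). The sections did not overlap. It fell by 1.28 on the log2 scale (SE 0.19, limma adjusted p = 0.00542) and passed with each array left out in turn. The gene rbohB, for an NADPH oxidase that forms superoxide at the plasma membrane, fell by 0.38 (SE 0.11, limma adjusted p = 0.0379), a call lost without CL replicate 2, CL replicate 3, CC replicate 2 or CC replicate 3 (adjusted p up to 0.128). No gene was matched to the list of copper chaperones, which load copper into copper and zinc dismutases.

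**Figure D5:**
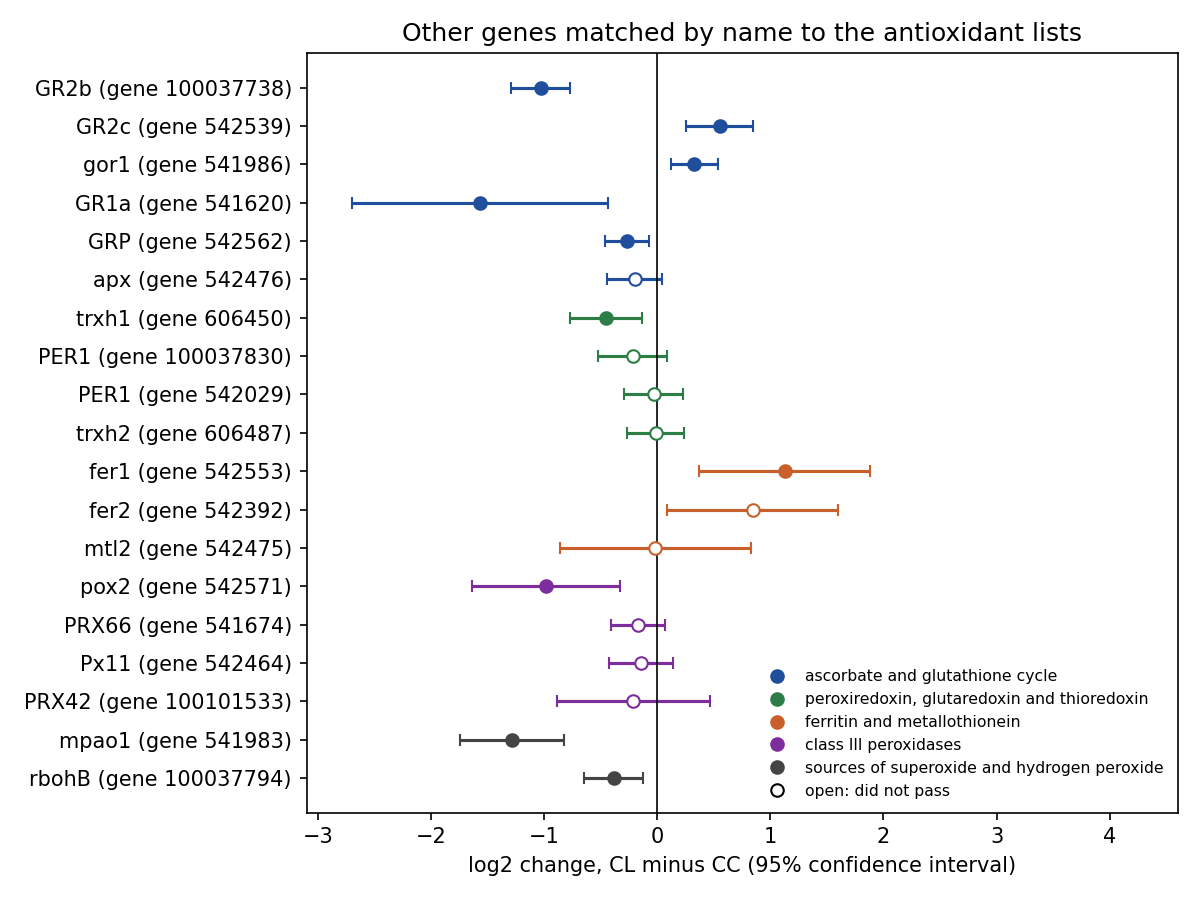
Log2 change (CL minus CC, horizontal axis) with its 95% confidence interval from limma (n = 3 per section) of the 19 genes matched by name to the lists of other antioxidant and oxidant genes, each by its brightest probe set; colours give the list and filled circles passed an adjusted p of 0.05. The filled circles right of 0 are GR2c, gor1 and fer1, and those left of 0 include mpao1 at -1.28 and GR1a at -1.57, the latter with the widest interval among the filled ones.

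Likeness to the 3 probe sets that rose was measured over the 6 arrays as the root mean square difference of log2 values centred on each gene's own mean, among 968 genes with an informative name. The profiles most like that of the middle cat1 probe set were pdi4, nfa104 and ppt1, at 0.0929, 0.0958 and 0.111. Those most like CAT3 were CAF1, prpo2 and GBF1, at 0.118, 0.135 and 0.139. Those most like Sod4A were elfa3, EF1-A and dnp1, at 0.0298, 0.0420 and 0.0429. The median differences over all genes compared were 0.540, 0.488 and 0.307. The profile of CAT3 had the more distant neighbours, with log2 changes of 0.61 to 0.65, and of these prpo2 did not pass (limma adjusted p = 0.0544). Likeness was measured on the same 6 arrays as the changes. A near neighbour therefore has a similar change by selection. By their names elfa3 and EF1-A belong to the elongation factor 1 alpha family, whose near-identical copies can share probes, so these are not independent neighbours.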

How the data were processed

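Single-colour 3' expression arrays were made from 250 ng of total RNA per sample, from plants under 228 µmol m-2 s-1 of light for 14 h a day, per the labels' protocols. The authors deposited log2 expression values. Per the submitters' processing notes, the tools used were RMA, Affymetrix Expression Console and limma, with versions not given in the sources used here. The table had 17555 probe sets, 6 arrays, 0 missing values and 0 unused columns. No scanner files were used, so no probe set was tested against background.

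Names came from an older platform annotation (1452 with 1 gene, 1 with several, 16102 with none named here) and RefSeq synonyms by gene ID. Where 1 value per gene was needed, the brightest probe set on average stood for the gene.

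CL minus CC was fitted with limma 3.58.1 in R 4.3.3 over all probe sets, without a block or filter, with Benjamini-Hochberg adjustment over all of them at 0.05. Samples were grouped by leaf section. p-values measure the spread between the 3 biological replicates of a section. The fit was tested on simulated data.

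All probe sets of the 6 genes are named. Of the other lists, genes past the threshold are named, or else the one with the smallest p, and apx, trxh2, PER1, fer2 and pdk1 were added after their values were seen. For each probe set that passed, the 3 genes nearest in profile are named. Members and lists were chosen with earlier results of these data known.

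Alternatives were a replicate block, an intensity trend, robust variances, median centring, quantile normalization, omission of the dimmest 25% or 50%, array weights, each array left out in turn, and an average over the probe sets of cat1 and of sod2. Same-numbered CL and CC arrays deviated from their section means in opposite directions (r = -0.535, -0.348 and -0.387), and the main fit did not pair them. Such deviations cannot show whether same-numbered arrays came from the same plants.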

Additional observations from a re-analysis of the deposited data

How the results depend on the processing

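Of 123 changes of single probe sets under the alternatives, 99 kept their direction and their side of the threshold, 12 fell short of it, 6 newly passed and 6 turned sign. The sign of cat2 turned with median centring (-0.033), quantile normalization (-0.052), and without CL replicate 1 (-0.0555), CC replicate 1 (-0.029) or CC replicate 2 (-0.0036); with 1 array left out its change ran from -0.0555 to 0.076. That of sod3 turned without CL replicate 2 (0.012), within a range of -0.0875 to 0.012. The count of the 9 probe sets that rose or fell in CL was 5 and 1 with array weights, and 1 fell with median centring and without the dimmest 25%. Over all probe sets, array weights gave 4388 higher and 4940 lower, and 1656 were lower without the dimmest 50%, where fewer were tested. With the replicate block, 0 of the 9 probe sets rose, and 1020 of all probe sets were higher and 850 lower. Of the 19 genes matched to the lists of other antioxidant and oxidant genes, 0 rose and 2 fell with the block. Whether same-numbered arrays form pairs was not settled. With the block the calls of CAT3 (limma adjusted p = 0.0948), Sod4A (0.0923) and the middle cat1 probe set (0.0505) were lost. Of those 19 genes 4 fell with quantile normalization and 4 without the dimmest 50%. With 1 array left out, 1 to 3 of the 9 probe sets rose and 0 to 1 fell, 1308 to 2818 of all probe sets were higher and 1082 to 2865 lower, and 0 to 4 of the 19 genes rose and 2 to 4 fell. Without the genes matched by symbol alone, an alternative chosen after seeing the data, 4 fell. Differences between isoforms kept their sign in all settings run except that of CAT3 minus cat1, which was -0.19 with the middle cat1 probe set, also chosen after seeing the data; it was 0.28 to 0.60 with 1 array left out. Fewer arrays enter the fits with 1 left out, and otherwise the cause was not tested. The median change over all probe sets was -0.09 with median centring and -0.01 with quantile normalization. The dimmest cat1 probe set has no value without the dimmest 25% or 50%, and the dimmer sod2 probe set none without the dimmest 50%, since they are among those left out.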
